A study of Caenorhabditis elegans with 10 samples.

Results

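Ribosome profiling, in which the stretches of mRNA covered by ribosomes are sequenced, was used to compare whole C. elegans at 20°C with animals moved to 10°C, the mild step that precedes deep cooling. The members described here were the genes with a footprint level of 20 FPKM or more (fragments per kilobase of coding sequence, as a share of the column's depth) in at least 1 of both conditions. Each gene was represented by the transcript whose mean over the 5 conditions of the series was highest. This left 3146 of the 19985 genes in the table, and 11641 genes had a count in either condition. All animals were the wild-type strain N2, raised from synchronised L1 larvae on OP50 bacteria and collected as 1-day-old adults. The 20°C group stayed at 20°C. The 10°C group spent 2 h at 10°C by the protocol, although its treatment label reads 3 h. Values after 1, 3 and 5 days at 4°C, which followed the same 10°C step, are given beside those of single genes as context. The samples titled 5 days carry a treatment label of 3 days, and day 5 below follows their titles. The methods of the study place the collection of the 20°C animals at the moment of that move, so cooling and elapsed time cannot be told apart.

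Each condition had 2 biological replicates, but the deposited table holds 1 pooled value per condition. Spread between replicates could therefore not be measured, no test over samples was possible, and each comparison is between pooled libraries. Counts were recovered from the FPKM, and 100% of values came out whole within 0.02 of a count. Both columns were shallow, with 675550 counts at 20°C and 486109 at 10°C over all transcripts, or 424059 and 300743 when each gene was read from 1 transcript. The members held 91.6% and 91.1% of the latter. A single count on a coding sequence of 1000 nt corresponded to 1.48 FPKM at 20°C and 2.06 FPKM at 10°C. Ratios are given with a 95% counting interval (Clopper-Pearson), which covers counting error and not the spread between animals or libraries. Footprints are shares of a column, so a change in total protein synthesis cannot be seen, and mRNA levels were not analysed here. In whole animals, fewer cells of a type and less RNA per cell cannot be told apart.

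Cooling slows ribosomes as it slows other enzymes, and animals adapt by changing chaperones, membrane lipids and the pool of mRNAs that ribosomes translate. In an adult hermaphrodite much of translation takes place in the intestine, which makes yolk protein for export to oocytes, and in the germline, which loads oocytes with maternal mRNA and protein. A brief period at a mild temperature is used in the laboratory because worms moved straight to deep cold often die.

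Footprint levels at 10°C lay close to those at 20°C. The log2 difference on FPKM + 0.5, as 10°C minus 20°C, had a median of 0.06 over the members, quartiles of -0.18 and 0.32, and a range from -0.70 to 0.93 between the 5th and 95th percentiles. The difference was above 0 in 1789 members (56.9%) and below 0 in 1357 (43.1%). Counts of list members above or below 0 in what follows are to be read against these shares. Scaling by a trimmed mean of log ratios in place of total counts shifted every difference by -0.12 and the median to -0.06, so the gene lists below with a median between 0 and 0.12 change sign with that choice. The genes with the highest levels illustrate how close both columns were. The acidic ribosomal protein gene rla-1 had 11935 FPKM at 20°C and 11774 FPKM at 10°C. The small-subunit gene rps-29 had 10561 and 9877 FPKM. The elongation factor gene eef-1A.1, whose product delivers aminoacyl-tRNA to the ribosome, had 9295 and 9643 FPKM. Y82E9BR.3 had 7119 and 7631 FPKM, and the large-subunit gene rpl-38 had 6046 and 6384 FPKM. The log2 differences of these 5 genes lay between -0.10 and 0.10.

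A 2-fold rule gave 140 members higher at 10°C (4.45% of members) and 80 lower (2.54%), but most of these rested on few reads. Of the 140, 73 had fewer than 10 counts over both columns, and 107 passed the 20 FPKM limit at 10°C only or at 20°C only. Of the 80, these numbers were 36 and 66. The extremes were short coding sequences with 1 to 4 counts. C51E3.10, with a coding length of 129 nt, had 0 and 4 counts, and F47G4.14, of 54 nt, had 3 and 0 counts. A stricter call is therefore used below. A gene was called clear when it differed by at least 1.5-fold, held 10 or more counts over both columns and had an interval that left out 1. This gave 46 members clearly higher (1.46%) and 31 clearly lower (0.985%). Of these, 17 rises and 4 falls passed the 20 FPKM limit in 1 column only, and with the limit set in both columns the rises numbered 29. Under the trimmed mean scaling there were 33 clear rises and 54 clear falls, and 102 and 100 genes at 2-fold. The verbs rose and fell are kept for these genes. Counts of list members that rose or fell are to be read against 1.46% and 0.985% of all members. In the 2933 members with 10 or more counts, the interval lay above 1 at any fold in 102 (3.48%) and below 1 in 83 (2.83%), where counting alone allows up to 5% in all for exact intervals.

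**Figure D1:**
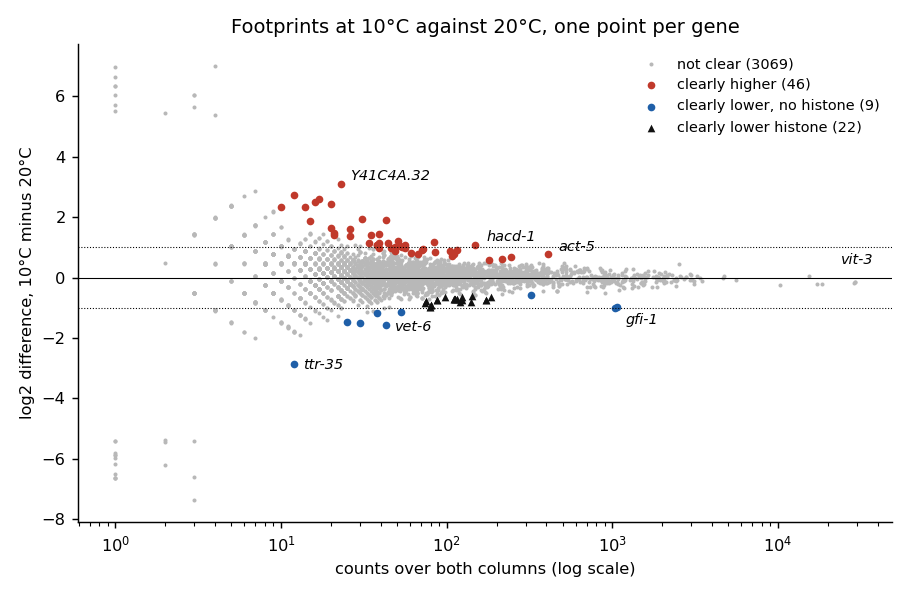
Each point is 1 of the 3146 genes. The horizontal axis is the number of counts over both columns on a log scale and the vertical axis the log2 difference of FPKM + 0.5, 10°C minus 20°C, with dotted lines at 2-fold. The fan narrows to the right, the 46 clear rises and 31 clear falls lie along its edge, and 22 of the falls are histone genes. Among genes with many counts, gfi-1 and its neighbour F57F4.4 stand below the rest.

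The members with the most reads show how small the step was. Of 228 members with 500 or more counts, 212 lay within 0.32 of 0 on the log2 scale and only 2, gfi-1 and F57F4.4, differed by 1.5-fold or more. The interval lay below 1 in 42 of these 228 and above 1 in 28, so small differences were still larger than counting error in many of them. Members with few reads sat higher. The median difference was 0.47 with 1 to 9 counts, 0.25 with 10 to 19, 0.08 with 20 to 49, 0.04 with 50 to 99, 0.07 with 100 or more but under 500 and -0.02 with 500 or more. A single count was worth more FPKM at 10°C than at 20°C, and 352 members passed it at 10°C only against 221 at 20°C only. Just inside the limit lay ssna-1, with 20.0 and 9.27 FPKM on 3 and 1 counts, and fipp-1, with 18.2 and 20.0 FPKM. Just outside it lay C54D10.3 and Y69E1A.5, which both had 19.97 and 19.8 FPKM.

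Histone genes made up most of the clear falls. Of 75 histone members, 70 had a difference below 0, 22 fell and none rose, with a median of -0.52 against 0.06 over all members. Over all members, histones among them, 0.985% fell and 1.46% rose. Their share of a column's counts was 1.72% at 20°C and 1.32% at 10°C. Histones H2A, H2B, H3 and H4 form the nucleosome core, and most of the worm's core histone genes are nearly identical copies expressed in dividing cells, which in an adult are those of the germline and embryos. Because the copies are so alike, a read can be counted at several of them, and the histone shares may be too high. Over all 5 columns, the 64 core histone members held only 47 different sets of counts, and of the 21 that fell, 17 were different. In the 20°C and 10°C columns alone fewer were different, since some of these sets differed only at 4°C. At 20°C and 10°C, his-28 and his-50 both had 121 and 52 counts, and his-29 and his-34 both had 61 and 26. Of the 64 core members, 62 were below 0, with a median of -0.56.

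All 4 core classes lay below 0. The 17 H2A genes had a median log2 difference of -0.64, with a median level of 258 FPKM at 20°C and 166 at 10°C, and 7 fell. The 16 H2B genes had a median of -0.75, with 231 and 123 FPKM, and 7 fell. The 15 H3 genes had a median of -0.51, with 306 and 200 FPKM, and 3 fell. The 16 H4 genes had a median of -0.42, with 363 and 251 FPKM, and 4 fell. Only 1 H2A gene, his-35, and 1 H4 gene, his-37, were above 0. The gene his-37 had 99.6 FPKM at 20°C and 165 FPKM at 10°C, a ratio of 1.65 (0.89 to 3.11).

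The largest core histone falls were in H2B genes on chromosome V. The genes his-52 and his-54 shared all their counts and are named together. They fell from 231 to 116 FPKM on 58 and 21 counts, 1.99-fold lower (1.19 to 3.45). The pair his-20 and his-22 differed from them by 1 count and fell from 231 to 122 FPKM, 1.90-fold lower (1.14 to 3.26). A further H2B gene, his-8, fell from 211 to 116 FPKM (1.82-fold, 1.08 to 3.17). The H2A gene his-61 (chromosome IV) fell from 328 to 188 FPKM (1.75-fold, 1.17 to 2.67). Among H4 genes the largest fold was that of his-18, with 470 and 270 FPKM on 99 and 41 counts (1.74-fold, 1.196 to 2.57). At day 1 at 4°C, his-52 stood at 139.6 FPKM, his-8 at 119.3 FPKM and his-61 at 309.6 FPKM.

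The size of the histone difference varied with level and place. The 18 core genes at 500 FPKM or more at 20°C had a median of -0.27, and the 46 below that level had a median of -0.64. The H2B gene his-48, for example, had 1058 and 946 FPKM, a ratio of 0.89 (0.73 to 1.09). On chromosome V, 17 of 25 core genes fell, with a median of -0.72. On chromosome IV, 3 of 22 fell, with a median of -0.35, and on chromosome II none of 13 fell, with a median of -0.48. The cause of these differences was not tested, and genes that share reads are not separate measurements.

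Replacement histones, which are made outside DNA replication, and linker histones, a separate class, gave a mixed picture. The H3.3 genes his-71, his-72 and his-74 had log2 differences of -0.11, -0.10 and 0.15, and none of their intervals left out 1. At the best measured of them, his-72, the level was 843 FPKM at 20°C and 786 FPKM at 10°C. The H2A.Z gene htz-1 fell from 304 to 180 FPKM on 87 and 37 counts, 1.69-fold lower (1.14 to 2.56). The centromeric histone gene hcp-3 had 51.2 and 40.3 FPKM. The linker histone H1 gene his-24 had 63.7 and 29.5 FPKM on 27 and 9 counts, with an interval for the ratio of 0.19 to 1.01. The other linker genes, hil-2, hil-4 and hil-5, lay at 0.28, 0.01 and -0.15.

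**Figure D2:**
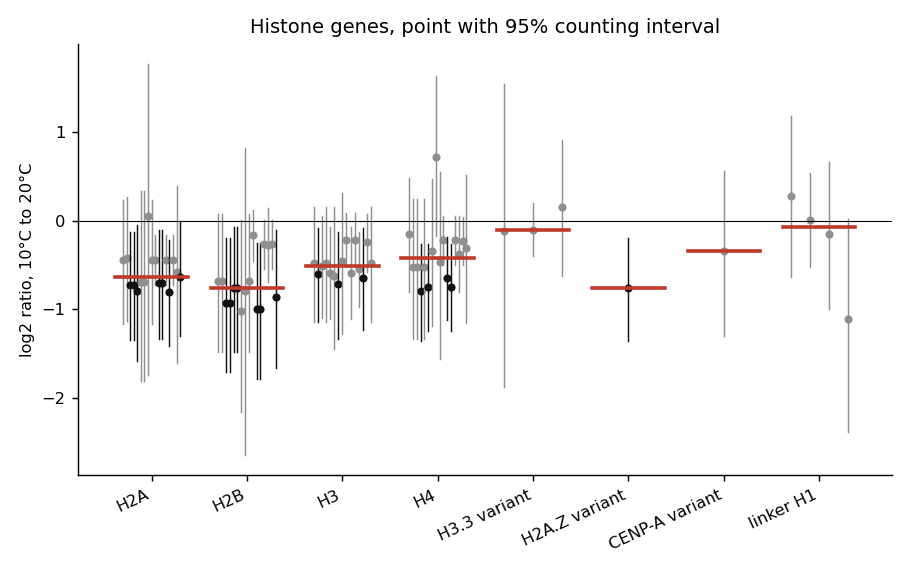
Histone genes by class, with the log2 ratio of 10°C to 20°C on the vertical axis. Points are genes, vertical lines 95% counting intervals, red bars class medians, and black marks clear falls; genes that share reads have a point each. Nearly all points of the 4 core classes lie below 0, while the 3 H3.3 points lie near 0.

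Other genes of chromatin and cell division did not share this pattern. Of 31 members of the cell cycle and DNA replication list, 17 were above 0 and 14 below, with a median of 0.01, and none was clear. The sliding clamp gene of DNA replication, pcn-1, had 576 FPKM at 20°C and 579 FPKM at 10°C. In the list of nuclear import, lamina and chromatin architecture, 17 of 22 members were above 0 (median 0.10) and 2 rose, where 1.46% of all members did. The HMG-box gene hmg-1.1, which encodes a DNA-bending chromatin protein, rose from 524 to 807 FPKM on over 100 counts in each column, 1.54-fold higher (1.17 to 2.03). The heterochromatin protein gene hpl-2, an HP1 homologue, rose from 44.9 to 89.6 FPKM on 16 and 23 counts (2.00-fold, 1.01 to 4.05). The chromodomain gene cec-7, outside these lists, rose from 21.7 to 46.6 FPKM (2.15-fold, 1.22 to 3.85).

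Apart from histones, 9 genes fell. The pair gfi-1 (chromosome V, 6392537 to 6399931, WBcel235) and F57F4.4 (V, 6401379 to 6408783), which are neighbours on the same strand, had by far the most reads among them. Footprints on gfi-1 fell from 175 to 87.5 FPKM on 764 and 275 counts, 2.00-fold lower (1.74 to 2.303). F57F4.4, named bcf-1 in the Ensembl annotation, fell from 185 to 93.1 FPKM on 786 and 284 counts, 1.99-fold lower (1.74 to 2.29). Both were lower again in every 4°C column, with 17.4 and 18.95 FPKM at day 1 and 2.83 and 2.97 FPKM at day 5. Their values stayed close in each column, and the sources used here do not say how reads that match both were assigned.

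The collagen gene col-42 fell from 317 to 210 FPKM on 218 and 104 counts, 1.51-fold lower (1.19 to 1.92). The other 6 falls rested on few reads. Of these, ttr-35, vet-6, asp-13 and pmp-5 were members through their 20°C value alone, so a higher value there was a condition of entry. ttr-35 (X, 6512285 to 6512918), a transthyretin-related gene, fell from 37.2 to 4.70 FPKM on 11 and 1 counts, a ratio of 0.13 (0.0029 to 0.87), and stood at 34.4 FPKM at day 1 at 4°C. vet-6 fell from 20.5 to 6.50 FPKM on 35 and 8 counts, 3.15-fold lower (1.43 to 7.86). skr-9, one of the worm's Skp1-related genes for ubiquitin ligase subunits, fell from 60.7 to 21.1 FPKM (2.88-fold, 1.15 to 8.61). asp-13, an aspartyl protease gene, fell from 25.3 to 8.79 FPKM (2.88-fold, 1.05 to 9.81). pmp-5, a gene of the peroxisomal membrane ABC transporter family, fell from 25.3 to 10.9 FPKM (2.32-fold, 1.07 to 5.57). C01B10.6 fell from 46.5 to 21.02 FPKM (2.21-fold, 1.16 to 4.51). At day 5 at 4°C, vet-6 was at 0.129 FPKM and pmp-5 at 0.193 FPKM, asp-13 had no count, and C01B10.6 was at 20.6 FPKM.

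The largest clear rises were in genes with few reads and mostly without a common name. Of these 12, 11 were members through their 10°C value alone, so a higher value there was a condition of their entry. The same held for the smaller rises of clec-41, pcyt-2.1, rrbs-1, Y76B12C.6, F48E8.2 and Y55F3BR.1, named further below. Y41C4A.32 (III, 11721706 to 11723607) rose from 5.07 to 46.97 FPKM on 3 and 20 counts, 9.26-fold higher (2.75 to 48.7). B0205.13 (I, 10727755 to 10728808) rose from 9.87 to 68.6 FPKM on 2 and 10 counts (6.95-fold, 1.48 to 65.2). F26A3.4 rose from 6.52 to 42.3 FPKM, F15E6.3 from 16.6 to 92.2 FPKM, C16C8.4 from 4.35 to 24.2 FPKM and M02H5.8 from 32.9 to 168 FPKM. These 4 held between 10 and 20 counts over both columns.

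Among the further large rises, some had more reads or a known product. T19D12.4 rose from 5.27 to 21.3 FPKM on 11 and 32 counts, 4.04-fold higher (1.99 to 8.89), and ZK1055.7 from 6.91 to 27.6 FPKM on 8 and 23 counts (3.99-fold, 1.73 to 10.3). C06B3.6, with neither, rose from 8.93 to 34.1 FPKM on 4 and 11 counts (3.82-fold, 1.13 to 16.46). gst-22, a glutathione S-transferase gene of detoxification, rose from 6.76 to 40.7 FPKM on 3 and 13 counts (6.02-fold, 1.65 to 32.95). hyl-2, which encodes a ceramide synthase, rose from 8.97 to 29.1 FPKM on 6 and 14 counts (3.24-fold, 1.17 to 10.3). atf-7, a bZIP transcription factor gene of innate immunity, rose from 8.62 to 26.9 FPKM on 8 and 18 counts (3.13-fold, 1.29 to 8.31). Shorter atf-7 transcripts, of 1122 nt, had 6 and 12 counts and an interval of 0.97 to 9.03, so this call depends on the transcript. Another bZIP gene of the pathogen response, zip-2, rose from 47.9 to 91.0 FPKM on 30 and 41 counts (1.90-fold, 1.16 to 3.15).

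Side by side with the colder conditions, these genes took different paths. Y41C4A.32 stood at 603 FPKM at day 1 at 4°C and 91.8 at day 5. ZK1055.7 stood at 218 and 48.09 FPKM, C06B3.6 at 214 and 25.15 FPKM, T19D12.4 at 131 and 90.7 FPKM, and F15E6.3 at 183 and 41.2 FPKM. F45D3.4, which rose from 39.0 to 86.6 FPKM at 10°C (2.22-fold, 1.12 to 4.56), reached 1125 FPKM at day 1 and 1800 FPKM at day 3, and its neighbour F45D3.3 went from 24.98 and 66.5 to 237 FPKM at day 1. By contrast, gst-22 stood at 5.73 FPKM at day 1 and M02H5.8 at 80.8 FPKM, and atf-7 at 23.6 FPKM. The 4°C columns are deeper, with 1 count worth 0.376 FPKM at day 1 at the same coding length.

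**Figure D3:**
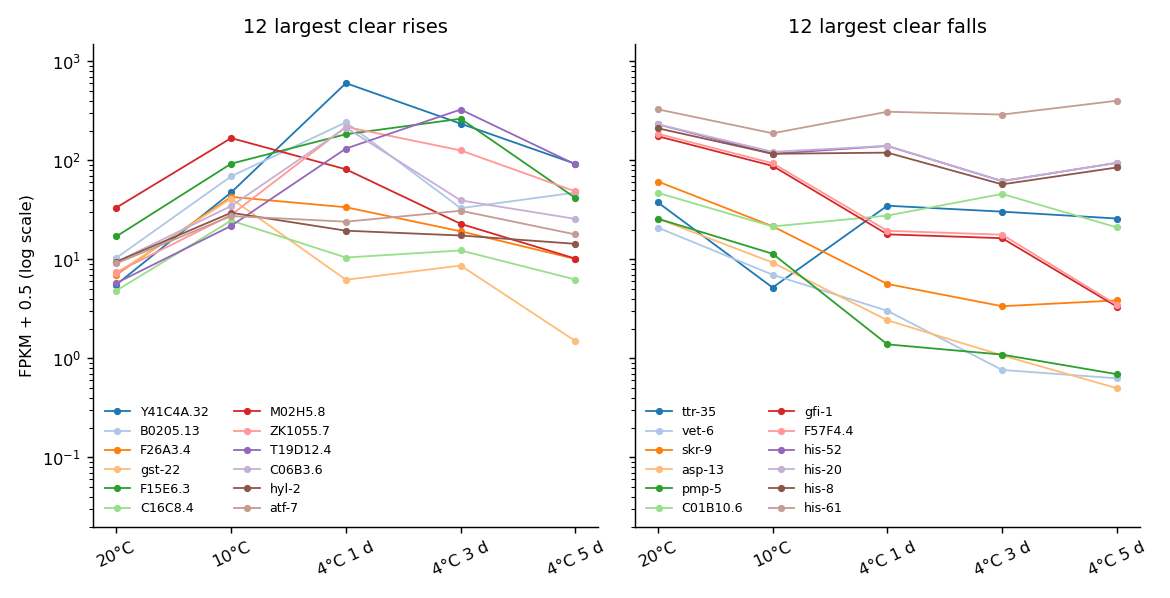
FPKM + 0.5 on a log scale in the 5 conditions for the 12 largest clear rises (left) and falls (right) from 20°C to 10°C; each line is a gene, and his-54 and his-22 lie under his-52 and his-20, whose values they share. Y41C4A.32 reaches 603 FPKM at day 1 at 4°C, gst-22 is back at 5.73 FPKM, and gfi-1 and F57F4.4 run together down to 2.83 and 2.97 FPKM.

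Enzymes that handle fatty acids gave several of the best measured rises. Of 20 members of the beta-oxidation and fatty acid activation list, 13 were above 0 (median 0.11) and 2 rose. hacd-1, a hydroxyacyl-CoA dehydrogenase gene, rose from 97.0 to 206 FPKM on 59 and 90 counts, 2.12-fold higher (1.51 to 3.00), and stood at 1.67 FPKM at day 1 at 4°C. ech-7, an enoyl-CoA hydratase gene, rose from 61.4 to 139 FPKM on 32 and 52 counts (2.26-fold, 1.43 to 3.63), and was at 40.0 FPKM at day 1. A related hydratase gene, ech-6, had 341 and 427 FPKM, a ratio of 1.251 (1.02 to 1.54). In the list of lipid synthesis and membrane regulators, 11 of 19 members were above 0 (median 0.08). Over all members 56.9% were above 0 (median 0.06) and 1.46% rose, and the medians of both lists change sign under the trimmed mean scaling. The acyl-CoA synthetase gene acs-1 rose from 40.4 to 75.7 FPKM on 49 and 66 counts (1.87-fold, 1.27 to 2.77). In the same list acs-13 had a ratio of 1.295 (1.099 to 1.53) and the lipid droplet perilipin gene plin-1 a ratio of 1.35 (1.101 to 1.66). pcyt-2.1, a gene for an enzyme of phosphatidylethanolamine synthesis, rose from 17.3 to 38.8 FPKM (2.24-fold, 1.07 to 4.88).

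Desaturases and elongases, which set the unsaturation and length of membrane fatty acids, had no clear member at 10°C. Among the delta-9 desaturase genes, fat-5 had 45.8 FPKM at 20°C and 69.8 at 10°C, a ratio of 1.52 (0.91 to 2.56). fat-7 had 21.8 and 34.4 FPKM, with 1.57 (0.74 to 3.39), and fat-6 had 138 and 111 FPKM, with 0.80 (0.55 to 1.16). These 3 genes thus did not lie on 1 side. The omega-3 desaturase gene fat-1 had 83.3 and 69.8 FPKM, with 0.84 (0.55 to 1.253). For the delta-12 desaturase gene fat-2, the transcript with the most counts had 69.4 and 41.8 FPKM on 53 and 23 counts, a ratio of 0.60 (0.35 to 1.00). The genes fat-3 and fat-4 had 13 and 6, and 23 and 11 counts on their longest transcripts. Of 8 members of the elongase list, 6 were below 0, with a median of -0.20. Within it, elo-6 had 194 and 175 FPKM and elo-2 had 124 and 160 FPKM, and none of the 8 intervals left out 1.

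With each gene copy counted, yolk protein genes had the largest share of counts of all the lists. They were all lower at 10°C by a small margin. The 6 vitellogenin genes encode lipid-carrying yolk precursors made in the intestine. Their share of a column's counts was 19.2% at 20°C and 17.1% at 10°C. Reads that match several copies may be counted at each, so this share may be too high. Its rank above that of ribosomal proteins is therefore not settled. The level of vit-2 was 3243 FPKM at 20°C and 2766 FPKM at 10°C, a ratio of 0.85 (0.83 to 0.88). vit-1 had 1941 and 1637 FPKM, a ratio of 0.84 (0.81 to 0.88), and vit-6 had 3371 and 2935 FPKM, a ratio of 0.87 (0.84 to 0.90). The genes vit-3, vit-4 and vit-5, close copies with nearly equal values that may share reads, had ratios of 0.89, 0.90 and 0.88. All 6 intervals lay below 1, and none of the 6 reached 1.5-fold. The yolk receptor gene of oocytes, rme-2, had 160 and 167 FPKM.

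**Figure D4:**
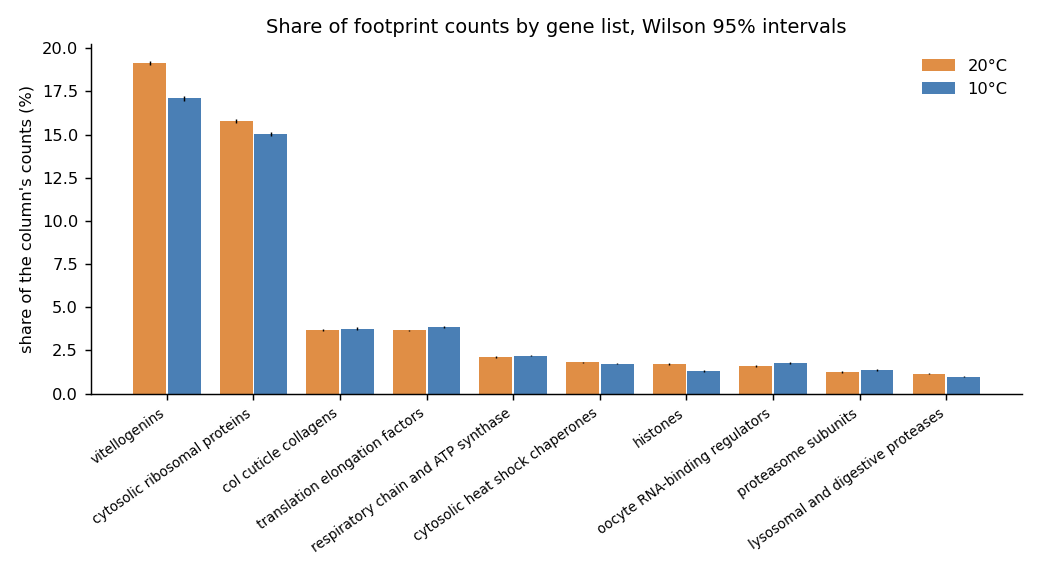
Share of each column's counts, in percent and from 0, held by 10 gene lists at 20°C (orange) and 10°C (blue), with Wilson 95% counting intervals. The vitellogenin bars stand at 19.2% and 17.1%, the ribosomal protein bars at 15.8% and 15.0%, and the histone bars at 1.72% and 1.32%. Reads that match several gene copies may be counted at each, which would raise the vitellogenin and histone bars.

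Lysosomal and digestive proteases, many of them intestinal, were lower as well. Of 18 members, 16 were below 0, with a median of -0.22, and 6 intervals lay below 1, although only asp-13 was clear. The share of counts was 1.16% at 20°C and 0.989% at 10°C. The cathepsin B-like gene cpr-9 had 646 and 462 FPKM, a ratio of 0.71 (0.61 to 0.84), and cpr-5 had 355 and 260 FPKM, with 0.73 (0.59 to 0.91). The aspartyl protease genes asp-4 and asp-1 had ratios of 0.70 (0.50 to 0.97) and 0.79 (0.70 to 0.89). The cathepsin L gene cpl-1 had 769 and 775 FPKM. Intestinal genes did not all lie on this side. act-5, the actin of the intestinal brush border, rose from 240 to 408.5 FPKM on 183 and 224 counts, 1.70-fold higher (1.39 to 2.08), the highest number of counts of any rise. It stood at 595 FPKM at day 1 at 4°C. The lysosomal proton pump gene vha-11 rose from 57.7 to 107 FPKM (1.85-fold, 1.24 to 2.79), the only clear member of 18 in the vacuolar ATPase list (median 0.07).

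Lists of immune and secreted proteins held few clear differences and did not lie on 1 side. Of 38 lysozyme and antimicrobial peptide members, 29 were above 0 (median 0.36), but 10 had fewer than 10 counts, and only lys-2 was clear. The median was 0.06 over the members of this list that passed the limit in both columns with 50 or more counts, and 0.11 with a limit of 50 FPKM. This lysozyme gene rose from 33.5 to 78.4 FPKM on 19 and 32 counts (2.34-fold, 1.29 to 4.37), and lys-1 had 145 and 211 FPKM, a ratio of 1.45 (1.07 to 1.97). The galectin gene lec-8 rose from 308 to 493 FPKM on over 100 counts in each column, 1.60-fold higher (1.23 to 2.08), and lec-9 from 76.99 to 156 FPKM (2.02-fold, 1.14 to 3.65). Galectins bind galactose-containing sugars. Of 16 C-type lectins, 10 were below 0 (median -0.13) and only clec-41 was clear, with 17.2 and 33.9 FPKM (1.97-fold, 1.06 to 3.76).

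The ribosome's own proteins sat slightly lower at 10°C, while factors around it did not. Of 81 cytosolic ribosomal protein members, 58 were below 0, with a median of -0.09, and their share was 15.8% at 20°C and 15.0% at 10°C. The interval lay below 1 in 23 and above 1 in 4. The lowest ratio was that of rps-1, with 1362 and 1023 FPKM on 712 and 385 counts (0.75, 0.66 to 0.85). rps-12 had 2933 and 2286 FPKM (0.78, 0.69 to 0.87), and rpl-7A had 2181 and 1740 FPKM (0.80, 0.72 to 0.88). On the other side, rpl-39 had 3340 and 4193 FPKM (1.26, 1.08 to 1.47) and rpl-16 had 2183 and 2523 FPKM (1.16, 1.05 to 1.28). The only clear member, rpl-12, rose from 44.6 to 95.01 FPKM on 15 and 23 counts, levels far under those of the other genes named here. Its shorter transcript, with 8 and 14 counts, had an interval of 0.95 to 6.69 and was not clear.

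Genes named as initiation factors, most of which help to bring the ribosome to the start codon, were above 0 in 23 of 29 members (median 0.12). In the same list, by its name, iff-1, an eIF5A gene, had 1355 and 1084 FPKM, a ratio of 0.80 (0.68 to 0.93). Of 11 elongation factors, 7 were above 0 (median 0.04), and eef-1B.2 had 878 and 1034 FPKM (1.18, 1.03 to 1.35). Aminoacyl-tRNA synthetases were above 0 in 14 of 20 (median 0.12). The 56 mitochondrial ribosomal proteins had 32 above 0 (median 0.15), with a median of 21 counts a gene, and none was clear. rrbs-1, a gene for ribosome biogenesis, rose from 13.3 to 34.9 FPKM on 9 and 17 counts (2.62-fold, 1.11 to 6.68). rpb-7, an RNA polymerase II subunit gene, rose from 122 to 211 FPKM on 49 and 61 counts (1.73-fold, 1.17 to 2.57).

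Chaperone genes showed small differences at 10°C. Of 13 cytosolic heat shock members, 10 were below 0, with a median of -0.07, and none was clear. hsp-90 had 1303 and 1202 FPKM on 1857 and 1232 counts (0.92, 0.86 to 0.99), and the constitutive Hsp70 gene hsp-1 had 2551 and 2432 FPKM (0.95, 0.90 to 1.01). The J-domain co-chaperone gene dnj-12 had 137 and 98.7 FPKM (0.72, 0.51 to 1.00). The CCT chaperonin, a ring that folds actin and tubulin, had 5 of 8 subunits above 0 (median 0.12). Its gene cct-5 had 230 and 322 FPKM on 253 and 255 counts, a ratio of 1.401 (1.17 to 1.67), and cct-1 had 241 and 308 FPKM, with 1.28 (1.07 to 1.52). The other 6 intervals held 1. The polyubiquitin gene ubq-1, picked after its values were seen, had 758 and 1023 FPKM on 1289 and 1252 counts (1.35, 1.248 to 1.46). Ubiquitin marks proteins for the proteasome, of whose 32 subunit genes 26 were above 0 (median 0.12) and none was clear. The best separated of these was pas-3, with 417 and 519 FPKM (1.245, 1.02 to 1.52).

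Genes of the unfolded protein response of the endoplasmic reticulum showed no clear difference in footprint level at 10°C. Of 23 members of the ER folding and degradation list, 13 were below 0, with a median of -0.04, and no interval left out 1. The ER Hsp70 gene hsp-4 had 185 and 194 FPKM on 122 and 92 counts, a ratio of 1.05 (0.79 to 1.39), and 549 FPKM at day 1 at 4°C. The response's transcription factor gene xbp-1 had 35.98 and 45.2 FPKM on 21 and 19 counts (1.26, 0.64 to 2.46), with equal values for both listed transcripts, so that these levels say nothing of the splicing that activates xbp-1. Its sensor genes had too few reads to compare. ire-1 had 10 and 4 counts, pek-1 had 11 and 7, and atf-6 had 5 and 1.

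Several other genes that the study named had few or no counts in both columns. The putative lipase gene lips-11 had 0 counts in both columns, and 188 FPKM at day 1 at 4°C. The bZIP gene zip-10 had 0 and 1 counts, numr-1 had 1 and 1, and cebp-1 had 6 and 7. At day 1 at 4°C these 3 stood at 148, 249.5 and 66.6 FPKM. The serpin gene srp-7 had 80.7 and 97.2 FPKM (1.204, 0.81 to 1.78) and 843 FPKM at day 1, and the heat shock factor gene hsf-1 had 13 and 6 counts. A count of 0 allows up to 3 counts, so for lips-11 no difference was detectable at this depth.

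Among germline lists, those of P granule and oocyte RNA-binding genes lay mostly above 0, where 56.9% of all members did, and that of eggshell genes did not. Of 14 members of the P granule and germline small RNA list, which covers the perinuclear RNA granules of germ cells, 13 were above 0, with a median of 0.31, which became 0.10 with no filter on level and 0.19 under the trimmed mean scaling. The Vasa-like helicase gene glh-1 had 174 and 229 FPKM on 269 and 255 counts (1.32, 1.11 to 1.57). glh-2 had a ratio of 1.32 (1.06 to 1.66) and glh-4 of 1.36 (1.08 to 1.72), and none was clear at 1.5-fold. Of 29 oocyte RNA-binding regulators, 22 were above 0 (median 0.18, or 0.06 under that scaling), with 6 intervals above 1 and none below. The translational repressor gene oma-2 had 182 and 240 FPKM (1.32, 1.04 to 1.68), lin-41 had 61.5 and 83.0 FPKM (1.35, 1.06 to 1.72) and car-1 had 1399 and 1623 FPKM (1.16, 1.05 to 1.27). memi-1, which acts in the oocyte's exit from meiosis, rose from 28.4 to 57.3 FPKM on 20 and 29 counts (2.02-fold, 1.101 to 3.76), and its relative memi-2, which may share reads with it, from 38.5 to 67.4 FPKM (1.75-fold, 1.02 to 3.02). Eggshell and egg activation genes were split, with 8 of 16 above 0 and a median of 0.00.

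The summed levels of cell type markers differed by class. The sum was 6100 FPKM at 20°C and 6006 at 10°C over 10 germline and oocyte markers, of which none was at 0 counts. It was 26495 and 23427 FPKM over 12 intestinal markers, most of it vitellogenin, and 1792 and 1941 FPKM over 7 body wall muscle markers. The 31 sperm markers summed to 858 and 1137 FPKM, with 24 of them members and 2 at 0 counts. The 34 members of the wider sperm gene list had a median difference of 0.47, with a median of 13 counts a gene and none clear. Neuron markers summed to 120 and 190 FPKM over 6 genes, of which 2 were members. Pharynx markers summed to 20.4 and 43.2 FPKM over 3 genes, of which 1 was a member. Hypodermis markers summed to 2007 and 1723 FPKM over 4 genes, of which 2 were members. Most of the hypodermis sum was the single collagen gene col-140, at 1552 and 1239 FPKM, and the wider collagen list is described below. The part of these sums in the results above was not tested.

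Cuticle collagens of the col family, made by the hypodermis, were above 0 in 32 of 48 members (median 0.07). Over all members 56.9% were above 0 (median 0.06). Besides col-42, which fell, col-140 had 1552 and 1239 FPKM (0.80, 0.72 to 0.89) and col-93 had 1310 and 1124 FPKM (0.86, 0.77 to 0.96). On the other side, col-106 had 1060 and 1298 FPKM (1.22, 1.09 to 1.37). sqt-3, a collagen gene outside that family name, rose from 31.4 to 66.8 FPKM on 15 and 23 counts (2.13-fold, 1.07 to 4.39). At day 1 at 4°C col-140 was at 158 FPKM and col-93 at 102 FPKM.

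Energy metabolism held close to its 20°C level. Of 46 members of the respiratory chain and ATP synthase list, 22 were above 0 and 24 below (median -0.01), and none was clear. atp-2, the gene for a catalytic ATP synthase subunit, had 973 and 1070 FPKM on 1063 and 841 counts (1.099, 1.00 to 1.205). The ADP/ATP carrier gene ant-1.1 had 2944 and 2802 FPKM. The tricarboxylic acid and glyoxylate cycle list had 13 of 26 above 0 (median 0.01), with ogdh-1 at 78.1 and 55.9 FPKM (0.72, 0.54 to 0.94). Glycolysis and gluconeogenesis had 11 of 17 above 0 (median 0.06), with pyk-1, a pyruvate kinase gene, at 260 and 316 FPKM (1.22, 1.02 to 1.45). The glycogen phosphorylase gene pygl-1 had 289 and 347 FPKM on 517 and 447 counts (1.202, 1.06 to 1.37). Among amino acid and nucleotide enzymes, hpd-1, which acts in tyrosine breakdown, rose from 61.4 to 101 FPKM (1.64-fold, 1.105 to 2.46). pnp-1, a purine nucleoside phosphorylase gene, rose from 27.8 to 61.3 FPKM (2.21-fold, 1.16 to 4.32).

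The other 10 clear rises were in mif-2, which encodes a relative of the cytokine MIF, and in Y55F3BR.1, F48E8.2, F41F3.3, C05C10.5, F22D6.2, Y76B12C.6, T22D1.5, Y71H10B.1 and F16B4.4. mif-2 rose from 37.96 to 105.5 FPKM on 7 and 14 counts, 2.78-fold higher (1.05 to 8.14), and stood at 64.8 FPKM at day 1 at 4°C. F22D6.2 rose from 77.9 to 151.6 FPKM on 30 and 42 counts (1.95-fold, 1.19 to 3.22) and was at 286 FPKM at day 1. F16B4.4 had the highest level of the 10 and rose from 461 to 693 FPKM on 86 and 93 counts, with an interval of 1.11 to 2.04, and was at 255 FPKM at day 1 and 13.03 FPKM at day 5.

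**Figure D5:**
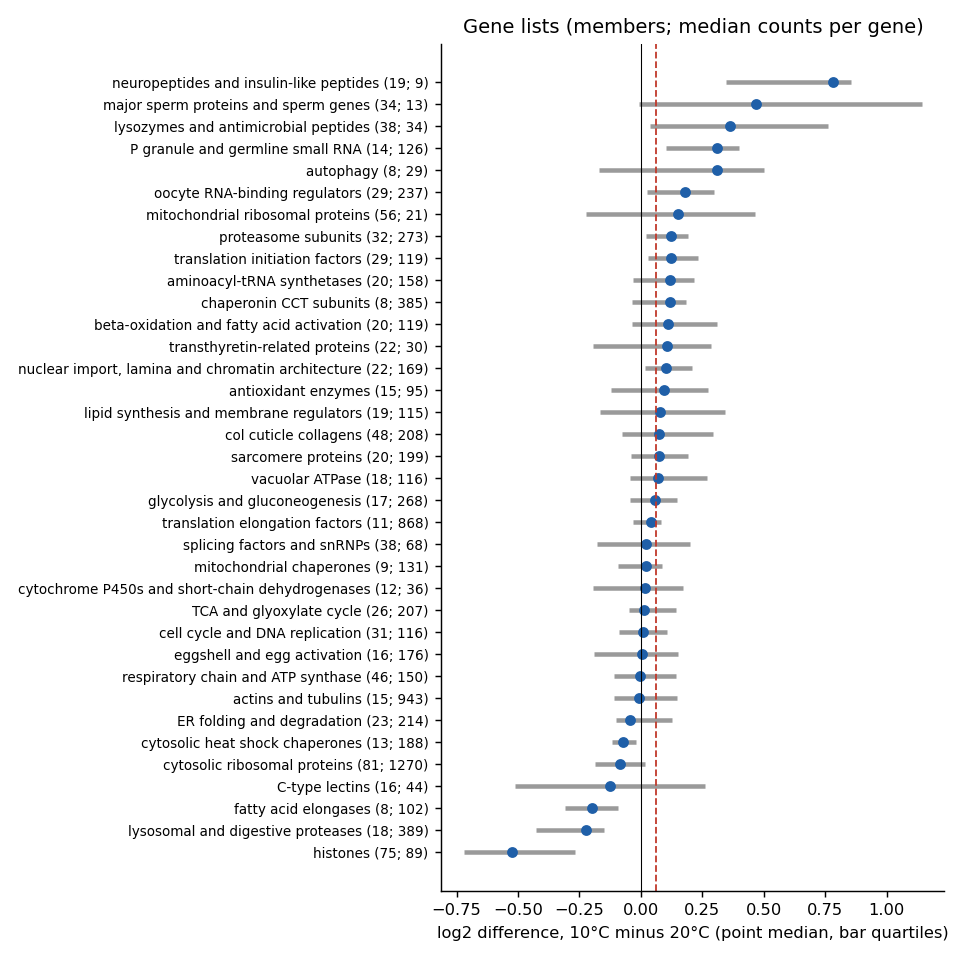
Median (point) and quartiles (bar) of the log2 difference, 10°C minus 20°C, for gene lists with 8 or more members; the number of members and the median counts per gene follow each name, and the dashed line marks the median of all members at 0.06. Histones stand lowest at -0.52. The highest lists, neuropeptides at 0.78 and sperm genes at 0.47, have medians of 9 and 13 counts a gene. The P granule list, also near the top at 0.31, has a median of 126 counts a gene.

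Position and length of the genes went with small differences in the median. Among members with 50 or more counts, those with a coding length under 500 nt had a median of -0.04 and held 22 of the 26 clear falls. These 22 were the histone falls, and no other gene under 500 nt with 50 or more counts fell. Members of at least 1500 but under 3000 nt had a median of 0.10. On chromosome V the median was -0.01 and on the other chromosomes between 0.03 and 0.06. Chromosome V held 20 of these 26 falls, among them 17 core histones, col-42, gfi-1 and F57F4.4. Across the 932 members with 100 or more counts, the Spearman correlation of the difference with coding length was 0.15, and 0.087 over the 900 of them that are not histones. These are descriptions across genes, which share libraries and are not independent replicates.

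Set beside the colder steps, the step from 20°C to 10°C had the narrowest quartiles of the 4 steps over the same 3146 members. They were -0.18 and 0.32 here, -0.45 and 0.42 from 10°C to day 1 at 4°C, -0.34 and 0.20 from day 1 to day 3, and -0.35 and 0.33 from day 3 to day 5. The steps also differ in length, with 2 h at 10°C by the protocol against 1 day or more for each later step. Temperature and time can therefore not be told apart here. The steps share columns and differ in depth, and the members were chosen on the shallow columns alone, so the quartiles are given side by side with no test.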

How the data were processed

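Ribosome-protected fragments of 2 biological replicates per condition were sequenced. The deposited values are FPKM of coding sequences, 1 pooled column per condition; the authors trimmed reads with fastp 0.23.4, filtered contaminants, aligned with STAR 2.7.11b to WBcel235 and estimated expression with DESeq2 1.42.1 within the ORFik pipeline. The sources used here do not state whether columns are sums or means, nor the annotation release or strand rule. A single column for another temperature matched no sample and was not used.

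Counts were recovered with coding lengths from Ensembl release 115. Members, calls (2-fold, or clear at 1.5-fold with 10 counts and a 95% interval) and a pseudocount of 0.5 were as in the results. Members, lists and calls were chosen with earlier results of these data known. Named genes were the 12 largest clear differences each way, the 5 highest levels, list members with extreme or clear differences, genes the study named and those at the limit; others were chosen after their values were seen. Of the items in 47 lists, 19 had no row. Ceramide synthase genes matched by mistake were taken out of the histone list after their values were seen.

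Between both columns the mean squared z was 0.485 for genes with 2 to 4 counts and 6.72 for 500 or more, where whole reads give 1 and a mean of 2 libraries gives 0.5, so intervals may be too wide for low genes and cover too little for high ones. GC content was not analysed here. The scripts were tested on simulated counts. Python 3.11.15, NumPy 2.4.6, pandas 2.3.3, SciPy 1.17.1 and Matplotlib 3.10.9 were used.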

Additional observations from a re-analysis of the deposited data

How the results depend on the processing

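No paired analysis was possible because the columns pool both replicates, and leaving out a replicate could not be done either. Counts at 2-fold (140 higher, 80 lower) depended on the filter and on low counts. They were 90 and 52 with a pseudocount of 5 FPKM, 377 and 216 with a limit of 10 FPKM, 34 and 16 with 50 FPKM, and 33 and 14 with 20 FPKM in both columns. They were 69 and 36 with the mean of both columns at 20 FPKM, 1838 and 1784 with no filter, and 6 and 1 for members that pass in both columns and hold 50 or more counts, a choice made after seeing the data. Clear rises (46) became 29 with a limit of 50 FPKM, 29 with 20 FPKM in both columns, 121 with counts doubled, 76 at a lower minimum fold (0.32 on the log2 scale), 29 at 2-fold and 20 in that last set of members. Scaling by a trimmed mean of log ratios gave 33 clear rises and 54 clear falls, and 102 and 100 genes at 2-fold, so the excess of rises over falls depends on the scaling. Clear falls (31) became 82 with counts doubled, 50 at that lower minimum fold, 6 at 2-fold and 9 without histones, also chosen after seeing the data. The trimmed mean shifted all differences by -0.12, taking the median of members to -0.06; the other scalings shifted them by -0.03 and -0.04. Of the 14 list medians recomputed, all kept their sign except neuropeptides (-0.19 in the set with 50 or more counts) and the respiratory chain, near 0. Medians could still move by much, as with the lysozyme and antimicrobial list, from 0.36 to 0.06 in that set. Of the largest clear differences, C16C8.4, M02H5.8, C06B3.6, hyl-2 and asp-13 were no longer clear when the 20°C counts were thinned to the 10°C total. Depth limits the low genes most: 213 members had fewer than 10 counts and could not be called clear.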

Other observations

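Gene families outside the lists, grouped by the stem of their names after the values were seen, gave further small patterns, which are given as values. Of 14 skr genes, which encode Skp1-related subunits of ubiquitin ligases, 11 were below 0 (median -0.43) and skr-9 fell. All 5 tmed genes, which encode cargo receptors between the ER and the Golgi, were below 0 (median -0.38), as were all 6 pud genes (median -0.21), whose members may share reads. On the other side, 8 of 10 galectin genes (lec) were above 0 (median 0.28), with lec-8 and lec-9 clear. Of 13 ubiquitin-conjugating enzyme genes (ubc), 11 were above 0 (median 0.21), and 8 of 10 cyclophilin genes (cyn) were (median 0.27). All 5 glutaredoxin genes (glrx) were above 0 (median 0.46), with a median of 22 counts a gene, and all 8 nspa genes (median 0.92), with a median of 10 counts a gene. Over all members, the median was 0.25 with 10 to 19 counts and 0.08 with 20 to 49. Similar genes of any of these families may share reads and need not be separate measurements. No gene of the tmed, pud, ubc, cyn, glrx or nspa families was clear.

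C17F4.7 (chromosome II), chosen as the lowest ratio after gfi-1 and F57F4.4 among members with 500 or more counts, had 1583 FPKM at 20°C and 1107 FPKM at 10°C on 600 and 302 counts, a ratio of 0.70 (0.61 to 0.80), and 341 FPKM at day 1 at 4°C.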
